A study of Mus musculus with 9 samples.

Results

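The genes described here encode 4 subunits of gamma-secretase (Ncstn, Psen2, Psenen and Aph1a) and the nuclear partners of the cleaved Notch receptor, which are the DNA-binding factor Rbpj and the coactivators Maml1, Maml2 and Maml3. They were chosen by name, as rows of the array table that carry 1 of these symbols and no other, and each gene was read from its row with the highest mean over the 9 arrays. All 8 were measured, among 22180 genes in all. The study, titled for a translational repression complex of neural stem cells, asked which transcripts are precipitated with Pum2, an RNA-binding protein of the Pumilio family known to repress the translation of its targets. Cortices were dissected from wild-type mouse embryos of the CD1 strain between embryonic days 12 and 13. The groups were RNA precipitated with a rabbit antibody to Pum2, RNA precipitated with normal rabbit IgG as the background of the method, and total input RNA taken without an antibody. Each group had 3 arrays labelled as biological replicates. The labels do not say how many embryos went into a replicate, and no group carried a transgene or a deletion.

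Notch signalling keeps radial precursors, the stem cells of the embryonic cortex, from becoming neurons too early. When a neighbouring cell presents a ligand, a membrane sheddase trims the Notch receptor outside the cell, and gamma-secretase then cuts it within the membrane. Nicastrin (Ncstn) receives the substrate, presenilin (Psen2) holds the catalytic site, Pen-2 (Psenen) is needed for presenilin to mature, and an Aph-1 protein (Aph1a, Aph1b or Aph1c) forms the scaffold. The freed intracellular domain enters the nucleus and joins Rbpj, which otherwise sits on target genes with corepressors, and a Mastermind coactivator of the Maml family completes the activating complex.

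Values are log2 signals made by the authors with RMA, so a difference of 1 is a doubling of signal, and levels of different genes are not set against each other. Arrays of 1 group correlated across genes with Pearson r between 0.994 and 0.996, and arrays of different groups with r between 0.977 and 0.989. On the input arrays all 10 measured radial precursor markers and all 9 cortical neuron markers lay above 6.08, the median of the genes' 9-array means. Endothelial and pericyte markers gave a log2 summed signal of 11.65 to 11.76 on the Pum2 arrays, 11.08 to 11.37 on the IgG arrays and 11.04 to 11.14 on the input arrays. For radial precursor markers the sums were 13.61 to 13.71 on the Pum2 arrays, 13.24 to 13.36 on the IgG arrays and 13.39 to 13.45 on the input arrays. Microglial marker sums lay between 9.26 and 9.501 on all 9 arrays, and their dimmest marker, the leukocyte phosphatase gene Ptprc, averaged 4.31 with Pum2, 4.12 with IgG and 4.16 in input. Meningeal and mesenchymal markers summed to 10.89 to 11.02 on the Pum2 arrays, 10.46 to 10.68 on the IgG arrays and 10.34 to 10.40 on the input arrays. In Pum2 over IgG, 4 of 10 endothelial, 4 of 9 meningeal, 4 of 10 radial precursor and 2 of 9 microglial markers were higher by limma, and 1 endothelial and 1 microglial marker were lower. Over all genes 19.4% were higher and 11.4% lower in that comparison, so the microglial counts were near the share of all genes. Cortical neuron markers gave 1 higher and 4 lower of 9 in the same comparison (median -0.21), and summed to 13.56 to 13.61 on the Pum2 arrays, 13.72 to 13.81 on the IgG arrays and 13.53 to 13.61 on the input arrays. The part of these marker shifts in the results for the 8 genes was not tested. The transcript of Pum2 itself was 0.30 ± 0.09 higher in the Pum2 precipitate than in the IgG precipitate (log2 difference ± SE, limma adjusted p = 0.0314). It was also higher in IgG than in input (0.61 ± 0.09, limma adjusted p = 0.00148). Pum2 over input was 0.91 ± 0.09 (limma adjusted p = 3.41e-05), so the larger part of that rise was present with nonspecific IgG.

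Members of the same enzyme complex moved in opposite directions. Against nonspecific IgG, Ncstn, Psen2, Maml1 and Maml2 were higher in the Pum2 precipitate, Psenen and Aph1a were lower, and Maml3 and Rbpj did not pass the test. Genes were called with limma at an adjusted p under 0.05 over all 22180 genes. The 4 higher of 8 stood beside 19.4% of all genes that were higher, and the 2 lower beside 11.4% that were lower. Over all genes 63.0% of the calls were higher, 79.1% when quantile normalization was run again and 46.9% when arrays were centred on the brighter genes, while 4 and 2 of these 8 were called under each scaling. The median difference of the 8 was 0.23, against 0.04 over all genes. Between the Pum2 and IgG arrays 6 of the 8 did not overlap, as was the case for 41.3% of all genes. The Pum2 and IgG groups differ by antibody, so these are differences in RNA recovered from the same kind of tissue. For the level in input RNA itself, fewer cells of a type and less RNA per cell cannot be told apart.

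**Figure D1:**
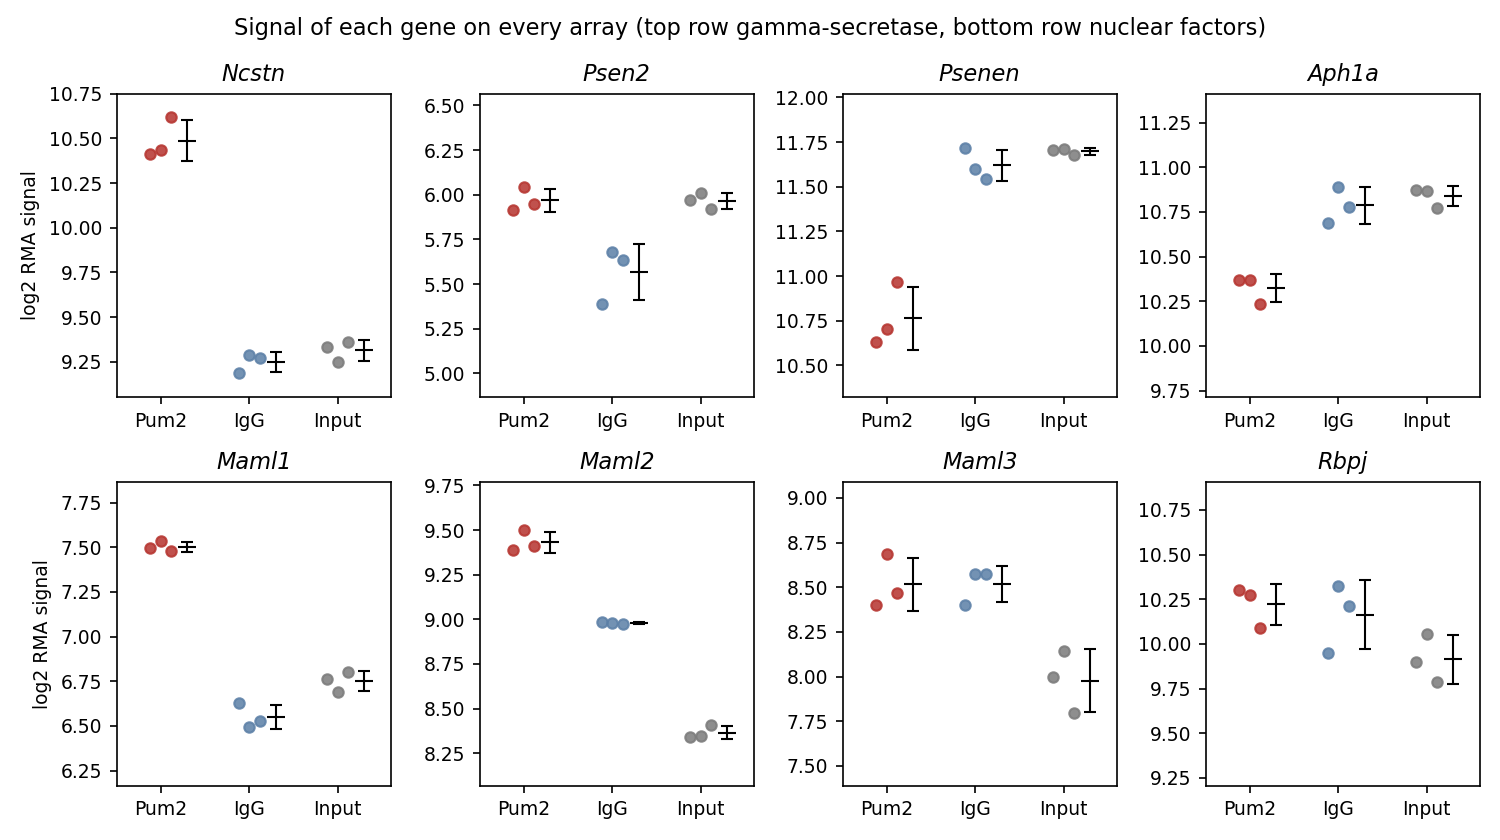
Log2 RMA signal (vertical axes, each spanning the same range) of the 8 genes on the 3 Pum2, 3 IgG and 3 input arrays, as coloured points, with the group mean and SD in black. Ncstn and Maml1 lie highest with Pum2 and Psenen and Aph1a lowest, while Maml2 steps down over Pum2, IgG and input.

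Ncstn, the gene of the subunit that receives the substrate, showed the largest difference of the 8. Its log2 signal was 10.41, 10.44 and 10.62 in the Pum2 precipitates, 9.19, 9.29 and 9.27 in the IgG precipitates and 9.33, 9.25 and 9.36 in input. The Pum2 arrays thus lay more than 1 log2 unit above every other array, and the IgG and input arrays overlapped. The difference was 1.24 ± 0.08 over IgG (SE, n = 3 arrays a group, 2.36-fold, limma adjusted p = 5.60e-06) and 1.17 ± 0.08 over input (2.26-fold, adjusted p = 3.34e-06). By size of the difference over IgG it ranked 36 from the top of 22180 genes. IgG over input was -0.07, with a 95% interval of -0.24 to 0.11.

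Psen2, which encodes a catalytic subunit, was dim on these arrays, and its mean of 5.84 over the 9 arrays lay below the median of all genes. Its signal was 5.92, 6.04 and 5.95 with Pum2, 5.39, 5.68 and 5.64 with IgG and 5.97, 6.01 and 5.92 in input. The IgG arrays were the low ones, and Pum2 and input arrays overlapped. Psen2 was 0.40 ± 0.09 higher in Pum2 than in IgG (adjusted p = 0.00645), and 0.40 lower in IgG than in input (-0.40 ± 0.09, adjusted p = 0.0116). Pum2 over input was 0.00, with a 95% interval of -0.20 to 0.20 (adjusted p = 0.986).

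Psenen, the gene of Pen-2, fell against both controls. Its signal was 10.63, 10.70 and 10.96 with Pum2, 11.72, 11.60 and 11.54 with IgG and 11.71, 11.71 and 11.68 in input. Every Pum2 array lay below every control array, and IgG and input overlapped. Pum2 over IgG was -0.85 ± 0.10, a 1.81-fold fall (adjusted p = 1.05e-04), and Pum2 over input was -0.93 ± 0.10, 1.91-fold (adjusted p = 3.72e-05). Only 2.50% of all genes had a lower difference over IgG. A dimmer row of the same gene read 10.27, 10.39 and 10.59 with Pum2, 11.10, 10.89 and 10.99 with IgG and 11.09, 11.06 and 11.08 in input. It was lower by the same test run over all 41345 rows of the table, at -0.58 ± 0.10 over IgG (adjusted p = 0.00266) and -0.66 ± 0.10 over input (adjusted p = 0.00108).

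Aph1a, the gene of a scaffold subunit, was also lower with Pum2 on the row used. The signal was 10.37, 10.37 and 10.23 with Pum2, 10.69, 10.89 and 10.78 with IgG and 10.87, 10.87 and 10.77 in input, with no overlap of Pum2 with either control. Pum2 over IgG was -0.46 ± 0.08 (adjusted p = 0.00156) and Pum2 over input -0.51 ± 0.08 (adjusted p = 5.96e-04). Its other rows did not repeat this call. A second row of its own stood at 8.15, 8.24 and 8.30 with Pum2, 8.30, 8.73 and 8.33 with IgG and 8.33, 8.76 and 8.40 in input. The Pum2 arrays were again the lowest, by 0.22 on average below IgG, which did not pass the test over all rows (-0.22 ± 0.15, adjusted p = 0.334). The mean of both rows was lower (-0.34, adjusted p = 0.0247). The row shared with the carbonic anhydrase gene Car14 was higher with Pum2 than with IgG (0.67 ± 0.15, adjusted p = 0.00965), and its signal cannot be assigned to either gene.

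**Figure D2:**
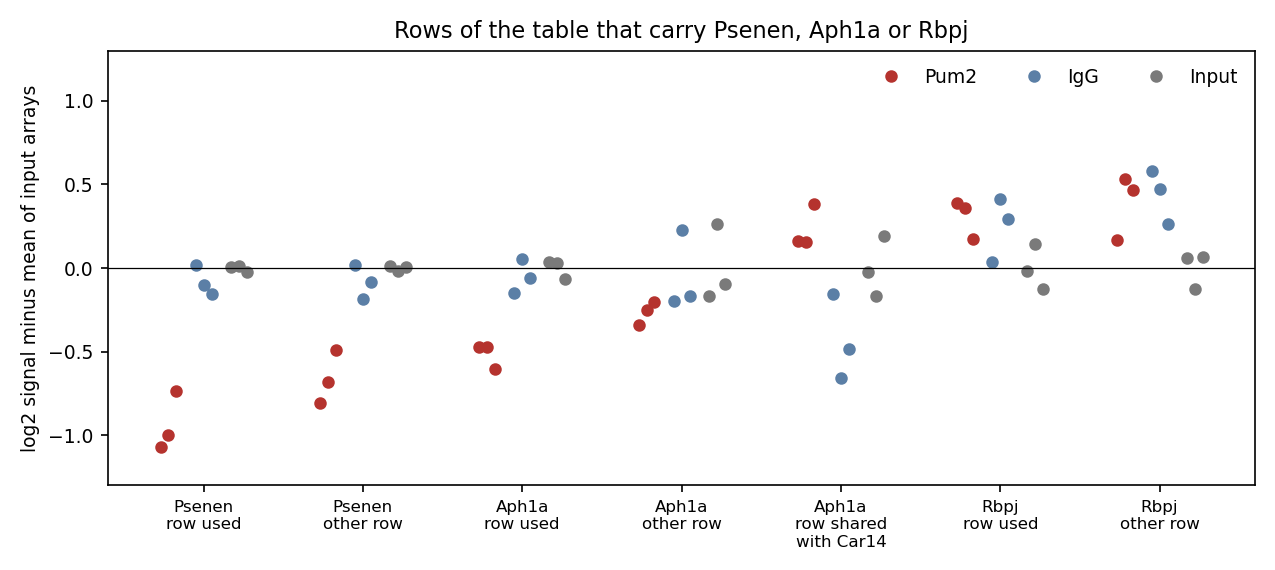
Log2 signal on each array minus the mean of the 3 input arrays (vertical axis) for the 7 rows of the table that carry Psenen, Aph1a or Rbpj, with Pum2, IgG and input arrays as coloured points. Both Psenen rows lie lower with Pum2, the Aph1a rows differ, and both Rbpj rows lie above input in the Pum2 arrays.

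Of the nuclear factors, Maml1 differed most between the precipitates. The signal of this Mastermind coactivator gene was 7.49, 7.53 and 7.48 with Pum2, 6.63, 6.497 and 6.53 with IgG and 6.76, 6.69 and 6.80 in input. Every Pum2 array lay above every control array. Maml1 rose by 0.95 ± 0.07 over IgG (1.93-fold, adjusted p = 1.16e-05) and by 0.75 ± 0.07 over input (1.68-fold, adjusted p = 2.25e-05). Its IgG arrays lay below its input arrays, a difference of -0.20 ± 0.07 that did not pass the test (adjusted p = 0.0793).

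Maml2, a second Mastermind gene, differed between all groups. Its signal was 9.39, 9.498 and 9.41 with Pum2, 8.99, 8.98 and 8.97 with IgG and 8.34, 8.35 and 8.41 in input, and no groups overlapped. Pum2 over input was 1.07 ± 0.07 (2.09-fold, adjusted p = 2.04e-06). Pum2 over IgG was 0.45 ± 0.07 (1.37-fold, adjusted p = 5.84e-04) and IgG over input 0.61 ± 0.07 (1.53-fold, adjusted p = 3.10e-04). The larger part of its rise over input was thus also present with nonspecific IgG.

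Maml3, the remaining Mastermind gene, was higher than input with either antibody. Its signal was 8.40, 8.68 and 8.47 with Pum2, 8.40, 8.58 and 8.57 with IgG and 7.999, 8.14 and 7.79 in input. The precipitates overlapped each other and lay above every input array. Pum2 over input was 0.54 ± 0.11 (adjusted p = 0.00326) and IgG over input 0.54 ± 0.11 (adjusted p = 0.00750). Pum2 over IgG was 0.00 with a 95% interval of -0.25 to 0.25.

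Rbpj, the DNA-binding factor of the complex, did not pass the test in any comparison on the row used. Its signal was 10.30, 10.27 and 10.09 with Pum2, 9.95, 10.33 and 10.21 with IgG and 9.90, 10.06 and 9.79 in input. Pum2 arrays lay above input without overlap, and the IgG arrays overlapped both other groups. Pum2 over IgG was 0.06 with a 95% interval of -0.20 to 0.31, and Pum2 over input 0.31 ± 0.11 (adjusted p = 0.0633). That second comparison passed in 7 of 17 alternatives, among them the mean of both Rbpj rows (0.35 ± 0.08, adjusted p = 0.00504). The dimmer row alone read 5.32, 5.69 and 5.62 with Pum2, 5.73, 5.63 and 5.42 with IgG and 5.22, 5.03 and 5.22 in input. By limma over all rows, this dimmer row was higher in Pum2 than in input (0.39 ± 0.12, adjusted p = 0.0467). IgG over input was as large there but did not pass (0.44 ± 0.12, adjusted p = 0.0525). Pum2 over IgG was -0.05 ± 0.12 (adjusted p = 0.818).

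**Figure D3:**
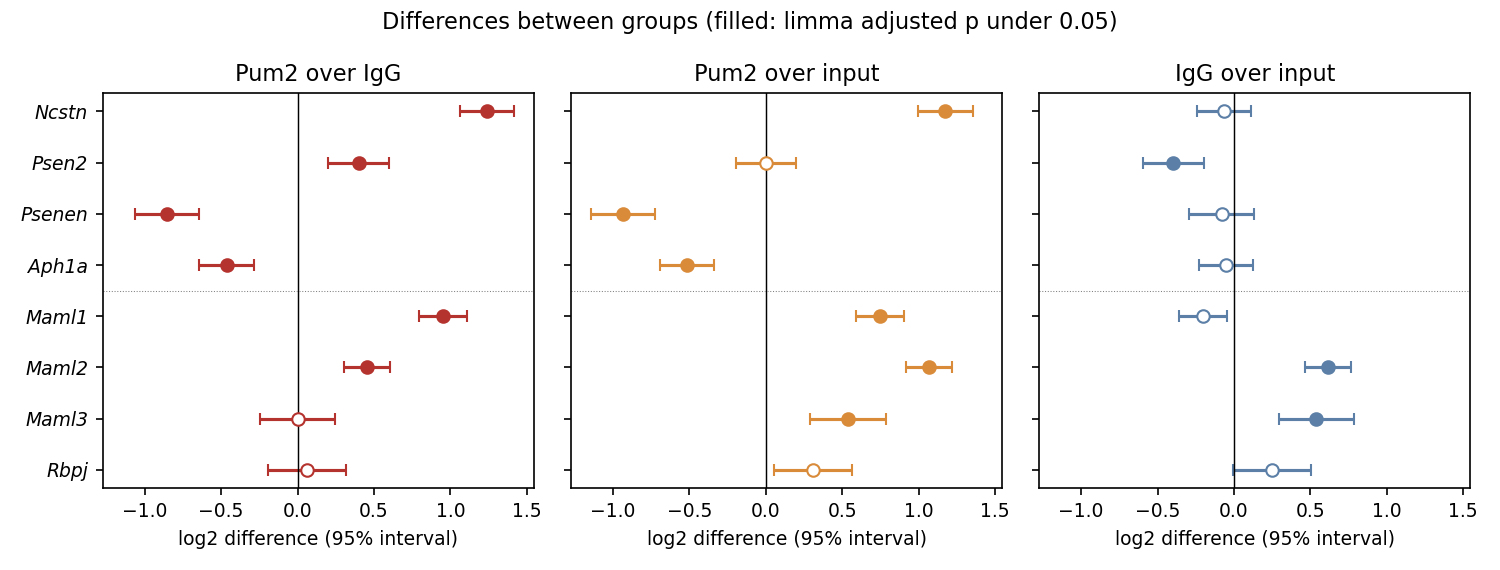
Log2 difference (horizontal axis, points) with its 95% interval (bars) for each gene, with Pum2 over IgG on the left, Pum2 over input in the middle and IgG over input on the right, filled where the limma adjusted p was under 0.05. Ncstn, Maml1, Psenen and Aph1a have similar values in the left and middle panels and are unfilled on the right, where Psen2, Maml2 and Maml3 are filled.

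Compared with input, 4 of the 8 were higher with Pum2 (Ncstn, Maml1, Maml2 and Maml3) and 2 lower (Psenen and Aph1a), beside 21.6% and 13.1% of all genes. The median was 0.42, against 0.07 over all genes, and the arrays of 7 of the 8 did not overlap, as for 45.3% of all genes. Ncstn, Maml1 and Maml2 were higher than both controls and Psenen and Aph1a lower than both, beside 14.2% and 7.69% of all genes. These 2 comparisons share the Pum2 arrays. With IgG over input, Maml2 and Maml3 were higher and Psen2 lower, beside 8.25% and 9.72% of all genes, and the median of the 8 was -0.06, against 0.02 over all genes. The IgG and input arrays did not overlap for 4 of the 8 and for 32% of all genes. By role, the 4 gamma-secretase genes had a median of -0.03 in Pum2 over IgG, with 2 higher and 2 lower. The 4 nuclear genes had a median of 0.26, with 2 higher and 0 lower. Both stand beside 19.4% of all genes higher and 11.4% lower, with a median of 0.04. Psen2, counted here as higher, did not pass the test in Pum2 over input (0.00). The lowest of these nuclear genes, Maml3, was at 0.00 in the main fit, so none of them could be called lower there at any threshold. In some of the alternatives Maml3 or Rbpj had a negative difference over IgG, which did not pass the test.

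**Figure D4:**
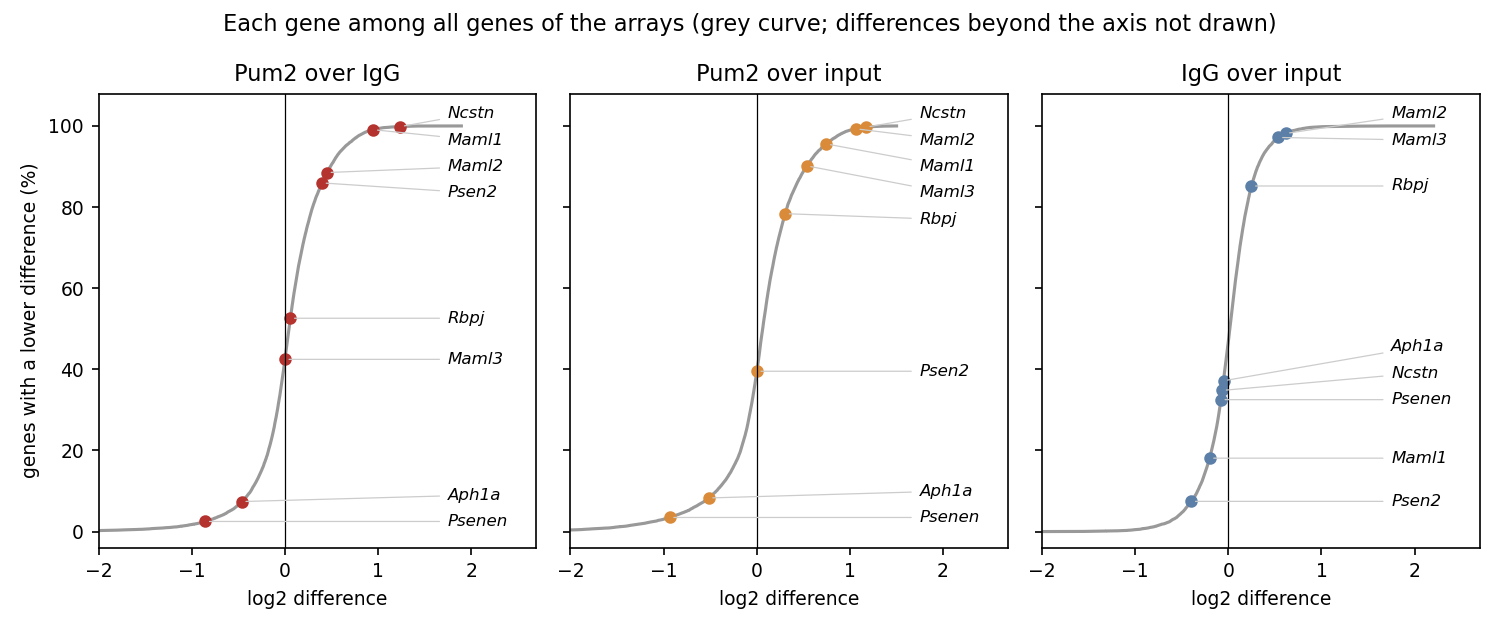
Percentage of the 22180 genes with a lower log2 difference (vertical axis) against the log2 difference (horizontal axis) for all genes as a grey curve, with the 8 genes as points, in each comparison. In Pum2 over IgG the points run from Psenen, with 2.50% of genes below it, to Ncstn, with 99.8% below it.

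How far members of the same part differed from each other was tested on the per-array difference between their log2 values, Pum2 arrays against IgG arrays, for 12 pairs. The 3 against 3 arrays allow no exact permutation p under 0.1, so none could reach 0.05. In 10 of the 12 pairs the two-sided exact permutation p was at this floor of 0.1 (adjusted p = 0.12 over the 12 pairs). The pairs reuse the same 8 genes, 6 of them already called, and a share over other gene pairs was not computed, so this count is a description. The widest gap was between Ncstn and Psenen. Ncstn minus Psenen was -0.35 to -0.22 on the Pum2 arrays and -2.53 to -2.27 on the IgG arrays, a change of 2.09. Among the coactivators, Maml1 changed by 0.50 more than Maml2 and by 0.95 more than Maml3. The pairs that overlapped were Psenen with Aph1a (-0.39, exact permutation p = 0.2, adjusted p = 0.218) and Maml3 with Rbpj (-0.06, exact permutation p = 0.7).

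Among the 11089 other genes at or above the median level, those most like Ncstn over the 9 arrays were the netrin receptor gene Unc5a (Pearson r = 0.994), the chromatin remodelling subunit gene Smarcd1 (r = 0.994) and Vat1 (r = 0.993). Their differences in Pum2 over IgG were 1.05, 0.76 and 0.86. Most like Rbpj were Slc35e3 (r = 0.974), the lipid kinase gene Pip4k2b (r = 0.956) and Rev1, a translesion DNA polymerase gene (r = 0.946), with 0.03, 0.07 and 0.00. Of the 8 genes, Ncstn and Maml1 had r = 0.974 over the 9 arrays, and Ncstn and Aph1a r = -0.95. These correlations are descriptions over 3 groups of 3 arrays, which share their group differences.

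Lists of other pathway genes, 92 of 97 measured, held 42 genes higher and 6 lower in Pum2 over IgG, with a median of 0.21. Each list count against IgG stands beside 19.4% of all genes higher and 11.4% lower, with a median of 0.04. The scaffold subunit genes Aph1b and Aph1c did not pass the test. Aph1b stood at 6.96, 7.11 and 7.18 with Pum2 and 7.14, 7.15 and 7.30 with IgG (-0.12 ± 0.09, adjusted p = 0.371), and Aph1c at 6.76, 6.88 and 6.90 with Pum2 and 6.76, 6.92 and 6.58 with IgG (0.095 ± 0.11, adjusted p = 0.582). With these, sheddases and modulators of the enzyme made up 11 measured genes, of which 2 were higher, a share near that of all genes, and 0 lower (median 0.095). The higher ones were Bsg, whose glycoprotein product has been reported to associate with gamma-secretase (0.40 ± 0.07, adjusted p = 0.00210), and the sheddase gene Adam17 (0.34 ± 0.10, adjusted p = 0.0276). Bsg, like Psen2, was lower in IgG than in input (-0.55 ± 0.07, adjusted p = 8.25e-04) and did not pass the test in Pum2 over input (-0.14). Gsap, the gene of gamma-secretase activating protein, was at -0.25 ± 0.10 (adjusted p = 0.0899) and was alone among these 11 in being lower at an unadjusted p under 0.05 by limma.

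Of 20 other cofactors of the nuclear complex, 6 were higher and 4 lower than in IgG (median 0.12). The histone deacetylase gene Hdac1 rose by 0.79 ± 0.10 (adjusted p = 1.81e-04). Hdac1 was lower in IgG than in input (-0.48 ± 0.10, adjusted p = 0.00673), and its rise over input was 0.31 ± 0.10 (adjusted p = 0.0302). The corepressor scaffold gene Sin3a rose by 0.72 ± 0.08 over IgG (adjusted p = 9.17e-05) and the Groucho-family gene Tle3 by 0.60 ± 0.09 (adjusted p = 4.64e-04). The 4 lower cofactors, named after their values were seen, were Cir1 (-0.53), the acetyltransferase gene Kat2b (-0.47), the histone demethylase gene Kdm5a (-0.42) and Spen (-0.31).

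Receptors, ligands and their modifying enzymes gave 12 higher and 1 lower of 17 (median 0.39), with the ligand gene Dll1 at 0.68 ± 0.09 and Dlk1, a Delta-like gene, at 0.62 ± 0.09 (both higher), and the Fringe gene Mfng lower at -0.84 ± 0.09. Genes of trafficking and turnover gave 7 higher and 1 lower of 15 (median 0.22). The Deltex-family gene Dtx3 rose by 1.42 ± 0.09 (adjusted p = 5.74e-06) and Numb, an inhibitor of Notch, by 0.85 ± 0.10. Both were lower in IgG than in input, Dtx3 at -0.88 ± 0.09 and Numb at -0.51 ± 0.10. Their rises over input were smaller, 0.54 ± 0.09 for Dtx3 (adjusted p = 0.00109) and 0.33 ± 0.10 for Numb (adjusted p = 0.0275). Mib1, a ubiquitin ligase gene that acts on Notch ligands, was lower than in IgG (-0.78 ± 0.10) and higher in IgG than in input (0.87 ± 0.10), with Pum2 over input at 0.09.

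Target genes of the pathway gave 6 higher and 0 lower of 12 (median 0.30), among them Hes1, a repressor of neuronal differentiation (0.64 ± 0.07), Id4 (0.70 ± 0.08) and Myc (0.71 ± 0.10). Over input the same list gave 5 higher and 3 lower (median 0.13), and in IgG over input 0 higher and 5 lower (median -0.13). Of its genes Hes1 alone was higher in IgG than in input at an unadjusted p under 0.05 by limma (0.19, adjusted p = 0.110). Other substrates of gamma-secretase gave 9 higher and 0 lower of 17 (median 0.46). The syndecan gene Sdc3 rose by 1.09 ± 0.07, the ephrin gene Efnb1 by 1.04 ± 0.08 and the adhesion molecule gene L1cam by 0.73 ± 0.10. Over input these substrates gave 13 higher and 0 lower (median 0.52, lowest 0.03), and in IgG over input 6 higher and 1 lower (median 0.16). For targets and substrates, the counts over input stand beside 21.6% of all genes higher and 13.1% lower (median 0.07). In IgG over input the shares of all genes were 8.25% higher and 9.72% lower (median 0.02). In Pum2 over IgG no member of these 2 lists with a negative difference had an unadjusted p under 0.05 by limma.

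**Figure D5:**
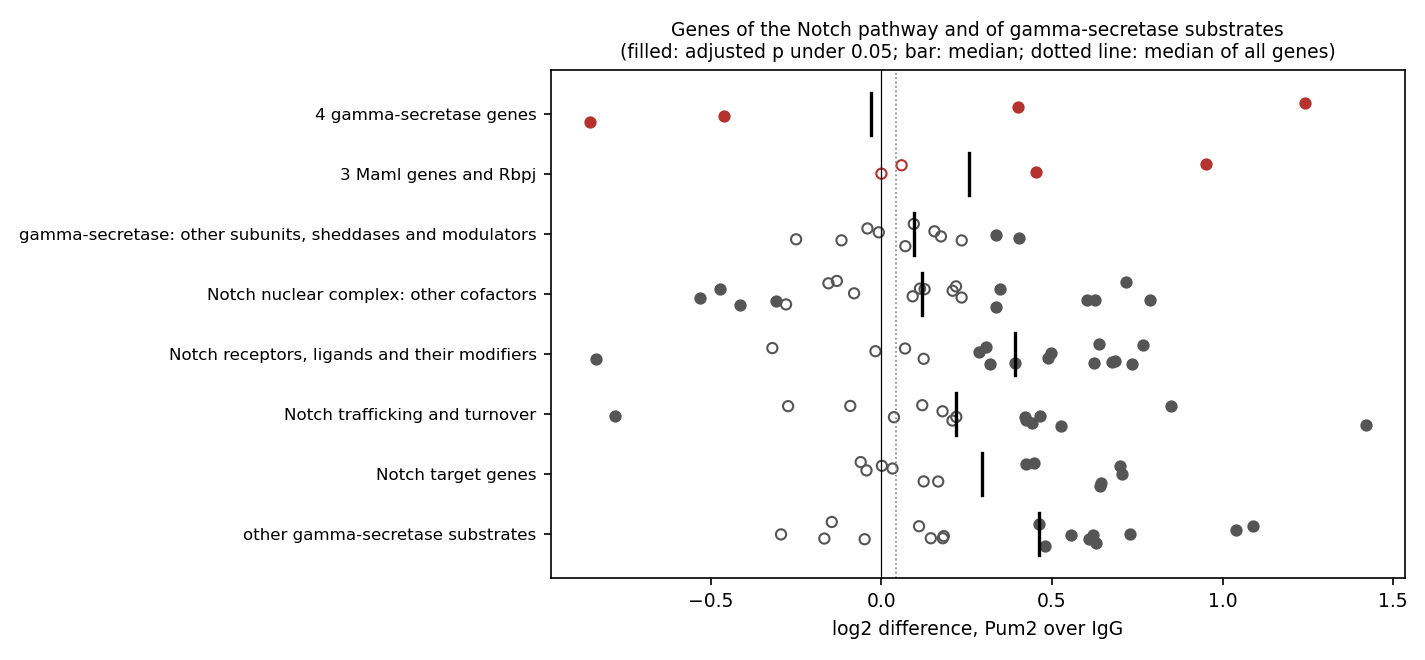
Log2 difference in Pum2 over IgG (horizontal axis) of each gene, filled where the adjusted p was under 0.05, for the 4 gamma-secretase genes and the 4 nuclear genes (red) and for 6 lists of other genes (grey), with list medians as bars and the median of all genes as a dotted line. The gamma-secretase genes spread from -0.85 to 1.24, and the lists of receptors and of substrates have medians of 0.39 and 0.46.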

How the data were processed

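RNA from embryonic mouse cortex was measured on Mouse Gene 2.0 ST arrays, 9 in all. Per the submitters' processing notes, the authors made the deposited log2 values with RMA in Affymetrix Expression Console. This method subtracts background, scales the arrays to each other and summarises probes. The deposited medians over all rows still differed by group. They were 5.37 to 5.40 on the Pum2 arrays, 5.54 to 5.57 on the IgG arrays and 5.48 to 5.52 on the input arrays. Over the named genes, medians were 6.095 to 6.104 with Pum2, 6.07 to 6.08 with IgG and 6.05 to 6.06 in input. Coordinates are left out because versions and genome build are not given in the sources used. Of 41345 rows, 23521 carried 1 gene symbol in the platform's probe table, 1814 several and 16010 none. The row with the highest mean was kept for each of 22180 genes. All 8 genes described carry the same symbol in RefSeq.

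All 9 arrays entered 1 fit with 3 groups in limma 3.58.1 (R 4.3.3), with 6 residual degrees of freedom and no replicate block, and p-values were adjusted by Benjamini and Hochberg over all genes. The fit was tested on simulated data. The p-values measure the spread between arrays labelled as biological replicates. Arrays have no read depth, and their number limits the precision. Pairs of genes were compared by exact permutation tests (scipy 1.17.1). The genes and lists were chosen with earlier results of these data known. From each pathway list the 3 genes with the largest absolute moderated t in Pum2 over IgG were named, besides Aph1b and Aph1c, and the 3 genes most correlated with Ncstn and with Rbpj. Alternatives were a replicate block, 2 groups in the fit, a filter on dim genes, a trended robust prior, requantiling, other centring, the mean of a gene's rows, a 1.5-fold threshold and leaving out each array. A fit over all rows was added after the data were seen.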

Additional observations from a re-analysis of the deposited data

Results flagged for a closer look

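The row that carries both Car14 and Aph1a, which the comparisons of genes did not use, was higher in the Pum2 precipitate than in the IgG control. Its log2 signal was 9.45, 9.44 and 9.67 with Pum2, 9.13, 8.63 and 8.80 with IgG and 9.26, 9.12 and 9.47 in input. Pum2 over IgG was 0.67 ± 0.15 (SE, n = 3 arrays a group, limma adjusted p = 0.00965 over all rows), against -0.46 ± 0.08 on the brightest row of Aph1a alone. Pum2 over input was 0.23 ± 0.15 (adjusted p = 0.296), and the Pum2 arrays overlapped the input arrays.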

How the results depend on the processing

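In Pum2 over IgG the calls of Ncstn, Psen2, Psenen, Aph1a, Maml1 and Maml2 kept their direction and an adjusted p under 0.05 in every limma fit tried, except that Psen2 was not tested with the filter on dim genes. Leaving out 1 array gave 1.18 to 1.28 for Ncstn, -0.95 to -0.79 for Psenen and 0.31 to 0.46 for Psen2. With a threshold of 1.5-fold, the counts over IgG were 2 higher and 1 lower of the 8. Over input 3 were higher and 1 lower, and over both controls 2 higher and 1 lower. In IgG over input 1 was higher and 0 lower. That threshold left 1448 higher and 1106 lower genes over IgG, 1844 and 1547 over input, 890 and 794 over both controls, and 422 and 663 in IgG over input. Quantile normalization run again gave 8093 higher genes over IgG, 7845 over input and 5472 over both. It took the median of all genes in Pum2 over IgG to 0.19. Relative to that median Ncstn stood at 0.99 and Psenen at -1.12, against 1.20 and -0.90 with the deposited scaling. Differences near 0 that did not pass the test changed sign. Maml3 over IgG was -0.0946 with arrays centred on brighter genes, -0.0837 without Pum2 replicate 2 and -0.0583 without IgG replicate 1, in a range up to 0.0587 with 1 array left out. Rbpj over IgG was -0.00524 requantiled, -0.0355 centred and -0.0470 without IgG replicate 1, and up to 0.142 with 1 array left out. Psen2 over input was 0.178 requantiled, -0.0680 centred, and -0.0344 without Pum2 replicate 2 and -0.0203 without input replicate 3, where leaving out 1 array gave values up to 0.0286. In IgG over input, requantiling gave 0.0377 for Psenen and 0.0244 for Aph1a. Rbpj over input passed in 7 of 17 alternatives, with adjusted p from 0.00504 to 0.186, among them without IgG replicate 1 (0.31, adjusted p = 0.0356) and without input replicate 2 (0.38, adjusted p = 0.0459). In IgG over input, Maml1 passed with the filter on dim genes (-0.20, adjusted p = 0.0325) and Rbpj with the mean of its rows (0.34, adjusted p = 0.0116). The cause of these changes was not tested. The labels do not say what a shared replicate number marks, so the number was not taken as a pairing. Arrays of the same number deviated together with r of 0.00 to 0.14. These values were not set against arrays of different numbers, so they cannot decide whether the arrays were paired. The replicate block left 4 higher and 2 lower of the 8 over IgG and over input, and 4344 higher and 2521 lower genes over IgG.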
